A study of Mus musculus with 12 samples.

Results

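Chemokine mRNA of CD8 cytotoxic T lymphocytes (CTL) was measured for Ccl3, Ccl4, Ccl5, Xcl1 and Ccl12. These 5 genes were taken by symbol from a table of 13283 genes, and all 5 were present. With the PI3K p110δ inhibitor IC87114 (PI3Kdi), Ccl3 and Ccl4 mRNA was lower and Ccl5 mRNA higher in each of 6 pairs of cultures, whether or not the CTL had FOXO1. Ccl12 mRNA, which was close to the detection limit, was lower in 6 of 6 pairs as well, and Xcl1 mRNA in 5 of 6. Pairs were cultures of one genotype with the same replicate number. Of all 13283 genes, 14% were lower and 9.2% higher in all 6 pairs, and the share for 5 of 6 was not computed. In the test over all genes, no member passed in either genotype alone unless same-numbered cultures were treated as pairs.

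The study asked which PI3K p110δ regulated mRNA in CTL depends on the transcription factor FOXO1. There were 4 groups of 3 biological replicates: WT, WT+PI3Kdi, FOXO1-GFP KO and FOXO1-GFP KO+PI3Kdi. All cells came from age-matched female mice, and every mouse carried Cre recombinase driven by the granzyme B promoter, which acts once a CD8 T cell has become an effector. WT CTL had unmodified Foxo1 alleles (GzmB cre+). FOXO1-GFP KO CTL had floxed Foxo1 alleles tagged with GFP (FOXO1-GFP fl/fl GzmB cre+), and cells that had lost GFP were sorted, so the deletion arose in culture and not in the naïve cell. Cells from spleen or lymph nodes were activated for 48 h through CD3 and CD28 in the presence of the cytokines IL-12 (2 ng/mL) and IL-2 (20 ng/mL), expanded in both, and then kept for 24 h with 10 µM IC87114 or with its vehicle. The cultures had no antigen receptor stimulus in these last 24 h, and live CD8+ cells were sorted before RNA extraction. Levels are FPKM, that is fragments per kilobase of exon, scaled to library depth.

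Chemokines are small secreted proteins that direct leukocyte migration through G protein-coupled receptors. CCL3 (MIP-1α), CCL4 (MIP-1β) and CCL5 (RANTES) are inflammatory CC chemokines that attract T cells and monocytes, and CCL3 and CCL5 signal through CCR1. XCL1 (lymphotactin) acts on XCR1, the receptor of cross-presenting dendritic cells. CCL12 (MCP-5) is a rodent ligand of CCR2 that attracts monocytes. Activated CD8 T cells are a well-known source of CCL3, CCL4, CCL5 and XCL1, whereas CCL12 is known mainly from macrophages.

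The genes for the CC chemokines lie together on chromosome 11 (GRCm38, GENCODE M21). Ccl3 is at chr11:83647844-83649355 on the minus strand, and Ccl4 is at chr11:83662584-83664683 on the plus strand, 13.2 kb away. Ccl5 is at chr11:83525778-83530518 on the minus strand, 117 kb from Ccl3. Ccl12 is at chr11:82101845-82103400 on the plus strand, 1422 kb from Ccl5. Xcl1 is at chr1:164931644-164935527 on the minus strand. The main transcript of each gene had 3 exons.

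The family is named for its first cysteines, and the coding sequences show how the members differ there. Each line gives, for 4 of the members, part of the spliced coding sequence from GENCODE M21, with the first cysteine codon or codons past codon 25, that is past the signal peptide, in capitals.
Ccl4: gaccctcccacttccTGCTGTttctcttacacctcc
Ccl5: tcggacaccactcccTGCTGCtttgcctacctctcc
Ccl12: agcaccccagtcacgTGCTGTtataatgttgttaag
Xcl1: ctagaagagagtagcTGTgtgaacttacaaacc
The 4 Ccl genes had an adjacent pair of cysteine codons, and Xcl1 had a single such codon at position 32, with 2 cysteine codons past codon 25 in all. Ccl3 and Ccl4 had the most similar coding sequences, with 68.4% identical positions, and Ccl5 was 62.5% identical to Ccl3 and 59.6% to Ccl4. Despite that similarity, no run of 75 bases, the read length, was shared between 2 of these transcripts, so that an exactly matching read end could not be assigned to both. Xcl1 overlaps the antisense gene Gm20743 on the plus strand, which shared 26 runs of 75 bases with it, and the strand setting of the counting was not given, so some Xcl1 reads may belong to Gm20743.

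For Ccl3, Ccl12 and Xcl1, RefSeq (GRCm38.p6) supplied the 250 bases before the gene start. They are shown because Ccl3 and Ccl12 mRNA moved the same way with PI3Kdi, and because FOXO1 was the factor deleted. Each is written along the strand of the gene, at chr11:83649379-83649628 (Ccl3), chr11:82101595-82101844 (Ccl12) and chr1:164935523-164935772 (Xcl1), with matches to the searched motifs in capitals.
Ccl3: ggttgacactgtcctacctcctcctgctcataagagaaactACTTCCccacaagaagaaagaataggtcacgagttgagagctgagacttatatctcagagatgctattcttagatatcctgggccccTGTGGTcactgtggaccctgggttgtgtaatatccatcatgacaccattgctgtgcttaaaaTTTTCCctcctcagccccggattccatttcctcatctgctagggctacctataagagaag
Ccl12: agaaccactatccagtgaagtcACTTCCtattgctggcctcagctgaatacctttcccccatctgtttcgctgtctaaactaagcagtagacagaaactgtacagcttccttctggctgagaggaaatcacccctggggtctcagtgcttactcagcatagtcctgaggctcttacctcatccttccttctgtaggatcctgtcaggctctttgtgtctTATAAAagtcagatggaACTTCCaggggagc
Xcl1: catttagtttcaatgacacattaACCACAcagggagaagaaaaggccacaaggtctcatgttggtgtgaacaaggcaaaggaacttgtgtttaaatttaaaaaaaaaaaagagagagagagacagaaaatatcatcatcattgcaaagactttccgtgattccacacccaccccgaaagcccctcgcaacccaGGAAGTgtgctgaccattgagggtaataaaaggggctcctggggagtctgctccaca
Both strands were searched for 7 motifs, and no matches overlapped. The Ccl3 window held RUNX (TGTGGT, present in 14% of 32851 promoter windows of this length), ETS (GGAAGT, 19.7%) and NFAT (GGAAAA, 20.4%) letters. The Ccl12 window held ETS letters at 2 places and TATA letters (TATAAA, 12.4%), and the Xcl1 window held RUNX and ETS letters. The letters of FOXO (GTAAACA, 3.17%), AP-1 (TGANTCA, 6.75%) and CRE (TGACGTCA, 1.55%) motifs were not in these windows, which says nothing of binding elsewhere.

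Depth and identity of the libraries were examined first. Effective depth, in M reads (megareads), was worked out from the steps between low FPKM values and ran from 12.9 M to 48.0 M. The vehicle groups averaged 33.7 M (WT) and 22.7 M (FOXO1-GFP KO), and the treated groups 16.6 M and 23.1 M, so WT+PI3Kdi was the shallowest group. Foxo1 was at 5.77 to 10.46 FPKM in the 6 WT libraries and at 0.58 to 1.75 FPKM in the 6 FOXO1-GFP KO libraries, without overlap. The 9 CD8 T cell markers were all detected, with Cd8a at 139 FPKM or more in every library. Of 15 myeloid markers 4 were in the table, and Lyz2, Csf1r and Adgre1 were not among them; Itgam and Cd14 stayed at or below 0.41 FPKM, whereas Cd68, a lysosomal protein gene, was at 14.5 to 27.0 FPKM.

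The 5 chemokine mRNAs covered a wide range of levels. Over the 12 libraries, Ccl5 averaged 46.1 FPKM, above 91.3% of the genes in the table. Ccl4 averaged 12.7 FPKM (above 71.4%), Ccl3 2.39 FPKM (above 35.0%), Xcl1 1.88 FPKM (above 31.2%) and Ccl12 1.18 FPKM (above 24.3%). FPKM divides by the union of all annotated exons, which is 960 bases for Ccl5, whereas its main spliced transcript has 532 bases, so the Ccl5 level per transcript is understated against the other members. The reads behind each value set its precision: 386 to 1693 reads per library for Ccl5, 65 to 612 for Ccl4, 13 to 99 for Ccl3, 5 to 50 for Xcl1 and 2 to 37 for Ccl12. The counting error of a single value was thus at most 5.09% for Ccl5 and 12.4% for Ccl4, but reached 27.7% for Ccl3, 44.7% for Xcl1 and 70.7% for Ccl12. In bulk RNA a change in the share of producing cells cannot be told apart from a change in mRNA per cell.

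**Figure D1:**
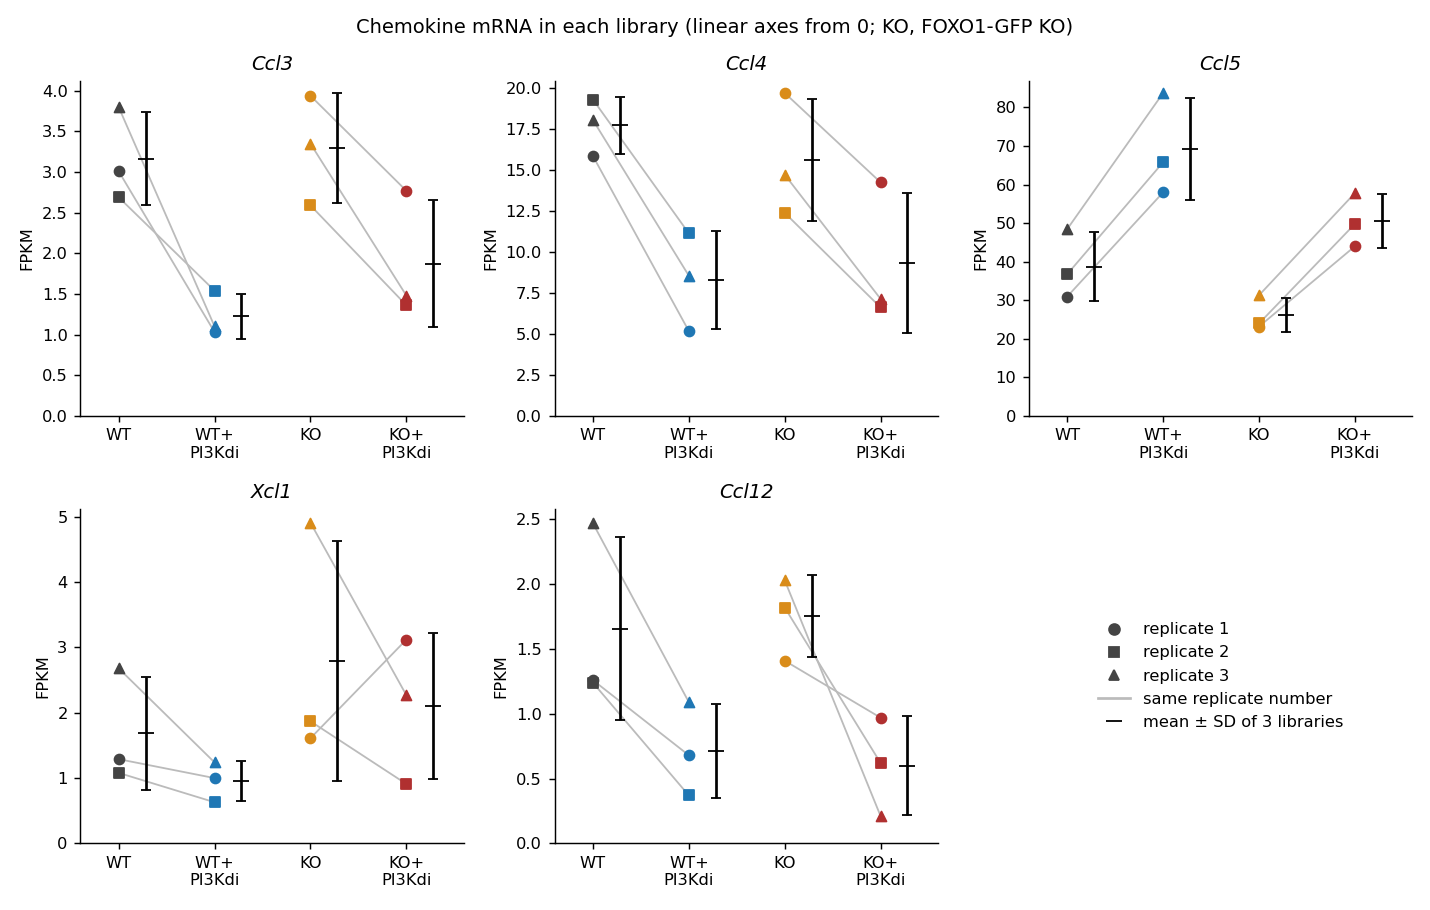
FPKM of the 5 chemokine mRNAs in each of the 12 libraries (points, shape by replicate number), with lines joining the vehicle and PI3Kdi cultures of the same number and bars for the mean ± SD of 3 libraries; KO is FOXO1-GFP KO. Every line falls for Ccl3, Ccl4 and Ccl12, every line climbs for Ccl5, and the Xcl1 line of FOXO1-GFP KO replicate 1 runs against the other 5.

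Ccl3, a ligand of CCR1, was at 3.01, 2.69 and 3.8 FPKM in WT CTL, replicates 1 to 3. In WT+PI3Kdi CTL it was at 1.03, 1.54 and 1.10 FPKM. The 2 groups did not overlap, and the highest treated culture lay below the lowest vehicle culture. FOXO1-GFP KO CTL had 3.94, 2.59 and 3.35 FPKM, and FOXO1-GFP KO+PI3Kdi CTL had 2.77, 1.36 and 1.48 FPKM. Here replicate 1 was high in both arms, and its treated culture lay above the vehicle culture of replicate 2, so the groups overlapped. Within pairs, PI3Kdi brought Ccl3 to between 0.289 and 0.703 of the vehicle level. Group means with vehicle were 3.17 ± 0.571 FPKM (WT) and 3.29 ± 0.677 FPKM (FOXO1-GFP KO), against 1.22 ± 0.276 and 1.87 ± 0.782 FPKM with PI3Kdi (SD, n = 3 each).

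Ccl4, a close relative of Ccl3, followed Ccl3 at a higher level. WT CTL had 15.9, 19.3 and 18.1 FPKM, and WT+PI3Kdi CTL had 5.17, 11.1 and 8.55 FPKM, with no overlap. FOXO1-GFP KO CTL had 19.7, 12.4 and 14.7 FPKM, against 14.3, 6.61 and 7.13 FPKM in FOXO1-GFP KO+PI3Kdi CTL. As for Ccl3, replicate 1 was the high culture of both FOXO1-GFP KO arms and made them overlap. Within pairs, Ccl4 with PI3Kdi was between 0.326 and 0.723 of the vehicle level. The means were 17.7 ± 1.75 (WT), 8.29 ± 2.99 (WT+PI3Kdi), 15.6 ± 3.74 (FOXO1-GFP KO) and 9.33 ± 4.27 FPKM (FOXO1-GFP KO+PI3Kdi; SD, n = 3 each).

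Ccl5, a ligand of CCR1 and CCR3 that effector and memory CD8 T cells make late after activation, moved the other way. WT CTL had 30.9, 36.7 and 48.4 FPKM, and WT+PI3Kdi CTL had 58.0, 65.8 and 83.8 FPKM. FOXO1-GFP KO CTL had 23.1, 23.9 and 31.3 FPKM, and FOXO1-GFP KO+PI3Kdi CTL had 44.0, 49.8 and 57.8 FPKM. Within each genotype the treated cultures lay above the vehicle cultures without overlap. The 6 pairs were close to each other, from 1.73 to 2.08 times the vehicle level, a narrower range than for the other members. The means were 38.7 ± 8.92 (WT), 69.2 ± 13.2 (WT+PI3Kdi), 26.1 ± 4.48 (FOXO1-GFP KO) and 50.5 ± 6.93 FPKM (FOXO1-GFP KO+PI3Kdi; SD, n = 3 each).

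Ccl12, the CCR2 ligand, was at 1.26, 1.24 and 2.47 FPKM in WT CTL and at 0.68, 0.37 and 1.09 FPKM in WT+PI3Kdi CTL. In FOXO1-GFP KO CTL it was at 1.41, 1.82 and 2.03 FPKM, and FOXO1-GFP KO+PI3Kdi CTL had 0.97, 0.62 and 0.21 FPKM. Within each genotype the treated cultures lay below the vehicle cultures. These levels rest on few reads. WT libraries had 17, 32 and 37 of them and FOXO1-GFP KO libraries 17, 32 and 14, whereas the treated libraries had 7, 3 and 9 (WT) and 16, 7 and 2 (FOXO1-GFP KO). The exact 95% Poisson interval of the lowest value, 2 reads in FOXO1-GFP KO+PI3Kdi replicate 3, runs from 0.242 to 7.22 reads and covers counting error only. The myeloid markers most used to define macrophages, the usual source of CCL12, were not in the table (above), and the summed level of the 4 that were was mostly Cd68. That sum was 16.4 to 21.7 FPKM in WT and 15 to 26.0 FPKM in WT+PI3Kdi CTL. It was 15.9 to 21.57 FPKM in FOXO1-GFP KO and 21.6 to 27.2 FPKM in FOXO1-GFP KO+PI3Kdi CTL. Between these 2 groups Cd68 had a log2 fold change of 0.35. Itgam, Cd14 and Itgax, with group means of at most 0.25 FPKM there, had -0.33, -0.61 and -0.20. The part of myeloid RNA in the Ccl12 result was not tested.

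Xcl1, the XCR1 ligand, varied widely between replicates, with a coefficient of variation of 32.1% to 65.6% within groups, against 18.0% to 63.4% for Ccl12. WT CTL had 1.29, 1.08 and 2.68 FPKM, and WT+PI3Kdi CTL had 1.0, 0.63 and 1.24 FPKM. FOXO1-GFP KO CTL had 1.61, 1.87 and 4.91 FPKM, and FOXO1-GFP KO+PI3Kdi CTL had 3.12, 0.91 and 2.27 FPKM. All 4 neighbouring groups overlapped. In 5 pairs the treated culture had 0.462 to 0.775 of the vehicle level, and in FOXO1-GFP KO replicate 1 it had 1.94 times that level, from 50 reads against 19.

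The order of the group means differed between members. For Ccl3, Ccl4 and Ccl12 both vehicle groups were above both treated groups, for Ccl5 both treated groups were above both vehicle groups, and for Xcl1 both FOXO1-GFP KO groups were above both WT groups. Neighbours in these orders overlapped, with 2 exceptions. For Ccl12 the lowest WT culture (1.24 FPKM) was above the highest WT+PI3Kdi culture (1.09 FPKM). For Ccl5 the lowest WT+PI3Kdi culture (58.0 FPKM) was just above the highest FOXO1-GFP KO+PI3Kdi culture (57.8 FPKM). The share of all genes separated by genotype in this way was not computed.

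Since groups without overlap occur in any table, the members were read against all genes. In WT CTL, 5.81% of the 13283 genes were lower and 4.43% higher in every PI3Kdi library than in every vehicle library; of the 5 members, Ccl3, Ccl4 and Ccl12 were among the former and Ccl5 among the latter. In FOXO1-GFP KO CTL the shares were 4.8% lower and 5.28% higher, with Ccl12 lower and Ccl5 higher. Across the 6 pairs, 14% of genes were lower and 9.2% higher in every pair, and 3 members were lower and 1 was higher in every pair.

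The PI3Kdi response was then tested with limma on log2(FPKM + 0.1) over all genes. Calls needed a fold change over 1.5 together with an adjusted p (Benjamini-Hochberg, all genes) under 0.05. Fold changes are on that log2 scale, which understates the changes of low genes. Those of Ccl12 depended on the pseudocount: with 0.01 and 1 FPKM its log2 fold changes were -1.26 and -0.62 in WT and -1.76 and -0.80 in FOXO1-GFP KO CTL. Those of Xcl1, called with neither, were -0.75 and -0.42 in WT and -0.57 and -0.34 over both genotypes. Same-numbered cultures of a genotype deviated together, so each result is also given with the replicate number as a block within genotype.

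In WT CTL without the block, 0.0979% of genes and none of the 5 members were called. Before adjustment, the p of Ccl3, Ccl4, Ccl5 and Ccl12 was under 0.05, as it was for 683 of all 13283 genes. With the block, 1.05% of genes were called lower and 1.53% higher, and 4 of 5 members were called. Ccl3 fell by 1.31 (SE 0.167, blocked as for the next genes) on the log2 scale, with an adjusted p of 0.136 without and 0.000725 with the block. Ccl4 fell by 1.15 (SE 0.162), with adjusted p of 0.355 and 0.00135. Ccl5 rose by 0.84 (SE 0.077), with adjusted p of 0.187 and 0.000124. Ccl12 fell by 1.14 (SE 0.316), with adjusted p of 0.794 and 0.0489. Xcl1 had a log2 fold change of -0.69 and was not called, with adjusted p of 1.0 and 0.213 and a blocked 95% interval from -1.39 to 0.0034. The calls of Ccl3, Ccl4 and Ccl5 held when any library was left out of the blocked fit. The Ccl12 call did not: it was lost on leaving out any of the 6 WT or WT+PI3Kdi libraries (adjusted p 0.0927 to 0.206), FOXO1-GFP KO replicate 2 (0.0597) or FOXO1-GFP KO+PI3Kdi replicate 2 (0.0591), and with the block as fixed terms (0.103).

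In FOXO1-GFP KO CTL without the block, 0.0452% of genes and again none of the members were called. The same 4 members had an unadjusted p under 0.05, as did 687 of all 13283 genes. With the block, 0.964% of genes were called lower and 1.82% higher. Ccl3 fell by 0.83 (blocked SE 0.167), with adjusted p of 0.668 without and 0.0117 with the block. Ccl4 fell by 0.80 (SE 0.162), with adjusted p of 0.868 and 0.0124. Ccl12 fell by 1.56 (SE 0.316), with adjusted p of 0.604 and 0.0121. Ccl5 rose by 0.95 (SE 0.077), with adjusted p of 0.252 and 9e-05. Xcl1 had a log2 fold change of -0.38, with adjusted p of 0.933 and 0.442. The Ccl5 call held whichever library was left out of the blocked fit. Those of Ccl3 and Ccl4 were lost without replicate 2 or 3 of either FOXO1-GFP KO group (adjusted p 0.0543 to 0.0907 for Ccl3 and 0.0525 to 0.0918 for Ccl4). That of Ccl12 was lost without FOXO1-GFP KO replicate 2 (0.0535) or 3 (0.0501), or without FOXO1-GFP KO+PI3Kdi replicate 3 (0.0537), the library with 2 reads, where its fold change became -0.98. Without FOXO1-GFP KO+PI3Kdi replicate 1, the culture in which Xcl1 was high, Xcl1 was called lower in the blocked fit (-0.96, adjusted p 0.0346).

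Over both genotypes together, 0.467% of genes were called without the block, among them 2 members. Ccl3 fell by 1.07 (SE 0.191, no block), with an adjusted p of 0.0365, a 2.10-fold decrease. Ccl5 rose by 0.90 (SE 0.136, no block), with an adjusted p of 0.0175, a 1.86-fold increase. Ccl4 (-0.98, adjusted p 0.0922) and Ccl12 (-1.35, adjusted p 0.101) passed with the block, at 0.000179 and 0.00176, where 0.715% of genes were called lower and 1.41% higher. Xcl1 stood at -0.54, with adjusted p of 0.725 without and 0.109 with the block. The 4 blocked calls held on leaving out any library. Xcl1 was called lower as well in the blocked fit without FOXO1-GFP KO replicate 1 (-0.82, adjusted p 0.00704). It was also called without FOXO1-GFP KO+PI3Kdi replicate 1 (-0.83, adjusted p 0.00537). Without the block, the Ccl3 call was kept on leaving out WT+PI3Kdi replicate 2 or FOXO1-GFP KO+PI3Kdi replicate 1 and lost on leaving out any of the other 10 libraries (adjusted p up to 0.117). Ccl4 was called without the block once FOXO1-GFP KO+PI3Kdi replicate 1 was left out (-1.15, adjusted p 0.0368). That of Ccl5 was lost without WT replicate 2 (0.0668), WT+PI3Kdi replicate 3 (0.0521), FOXO1-GFP KO replicate 1 (0.0556) or 2 (0.0617), or FOXO1-GFP KO+PI3Kdi replicate 3 (0.0563).

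**Figure D2:**
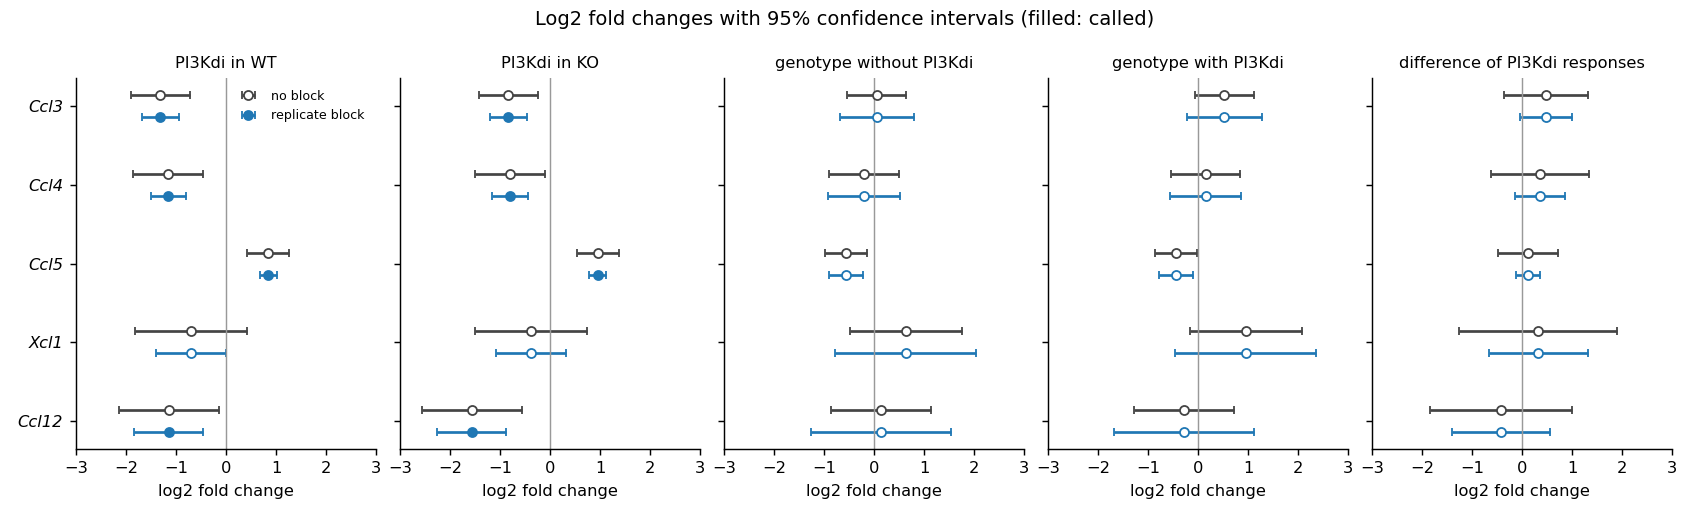
Log2 fold changes (x axis, log2(FPKM + 0.1) scale) of the 5 chemokine mRNAs in 5 comparisons, with 95% confidence intervals without (grey) and with the replicate block within genotype (blue); filled points were called. The block narrows the intervals of the PI3Kdi comparisons, where Ccl3, Ccl4, Ccl5 and Ccl12 are filled, and no point is filled for genotype or for the difference between the responses.

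Whether the response to PI3Kdi differed between WT and FOXO1-GFP KO CTL was tested by the difference of the 2 log2 fold changes. No gene was called without the block by limma (0%; before adjustment, p was under 0.05 for 200 genes), while 0.0226% passed with it, none of them a chemokine. The difference, FOXO1-GFP KO minus WT, was 0.48 for Ccl3 (blocked 95% interval -0.04 to 0.99, adjusted p 0.509) and 0.35 for Ccl4 (-0.15 to 0.85, adjusted p 0.615). It was 0.11 for Ccl5 (-0.13 to 0.35, adjusted p 0.736), -0.42 for Ccl12 (-1.40 to 0.55, adjusted p 0.754) and 0.32 for Xcl1 (-0.67 to 1.30, adjusted p 0.825). The blocked interval for Ccl5 holds differences of at most 0.35, but without the block it ran from -0.49 to 0.70. The intervals for Ccl12 and Xcl1 are too wide to compare the genotypes.

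The effect of losing FOXO1 was compared in either state. In the absence of PI3Kdi, 0.331% of genes were called without and 0.233% with the block. In its presence the shares were 1.45% and 1.18%, and over both treatments 2.52% and 0.67%. No member was called in these 6 fits. Ccl5 came closest, with log2 fold changes of FOXO1-GFP KO over WT of -0.55 without PI3Kdi (adjusted p 0.456 and, blocked, 0.301), -0.44 with PI3Kdi (0.454 and 0.327) and -0.50 over both (0.0776 and 0.240). Each of these is a fold change under 1.5, such as 1.41-fold lower over both treatments. With the replicate number shared by all 4 groups as the block, which the correlations of the libraries did not bear out across genotypes, the adjusted p of Ccl5 over both treatments was 0.000297 at the same fold change, still short of a call. Xcl1 had higher means in FOXO1-GFP KO CTL, by 0.63 without and 0.95 with PI3Kdi, with blocked intervals of -0.79 to 2.04 and -0.47 to 2.36. Ccl3 (0.05 and 0.52), Ccl4 (-0.21 and 0.15) and Ccl12 (0.13 and -0.29) had intervals that included 0 in both states.

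The opposite movement of Ccl5 and of Ccl3 and Ccl4 changed the make-up of the chemokine mRNA. The summed level of the 5 members was 62.9 ± 11.7 FPKM (WT) and 49.6 ± 6.83 FPKM (FOXO1-GFP KO) with vehicle, against 80.3 ± 14.96 and 64.4 ± 4.83 FPKM with PI3Kdi (SD, n = 3 each). Ccl5 made up 59.1%, 60.2% and 64.2% of that sum in WT and 88.0%, 82.8% and 87.5% in WT+PI3Kdi CTL. The FOXO1-GFP KO cultures had shares of 46.4%, 56.2% and 55.6% with vehicle, and of 67.6%, 84.0% and 83.9% with PI3Kdi. Every treated culture thus had a larger Ccl5 share than every vehicle culture, including FOXO1-GFP KO+PI3Kdi replicate 1, which had the lowest share of the 6. The ratio of Ccl5 to Ccl4 was between 1.17 and 2.68 in the 6 vehicle cultures and between 3.09 and 11.2 in the 6 treated ones. By contrast, Ccl4 stood at 4.39 to 7.77 times Ccl3 across the 12 libraries. The shares and ratios of Ccl5 are understated, as its FPKM is divided by the union of all annotated exons (above).

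**Figure D3:**
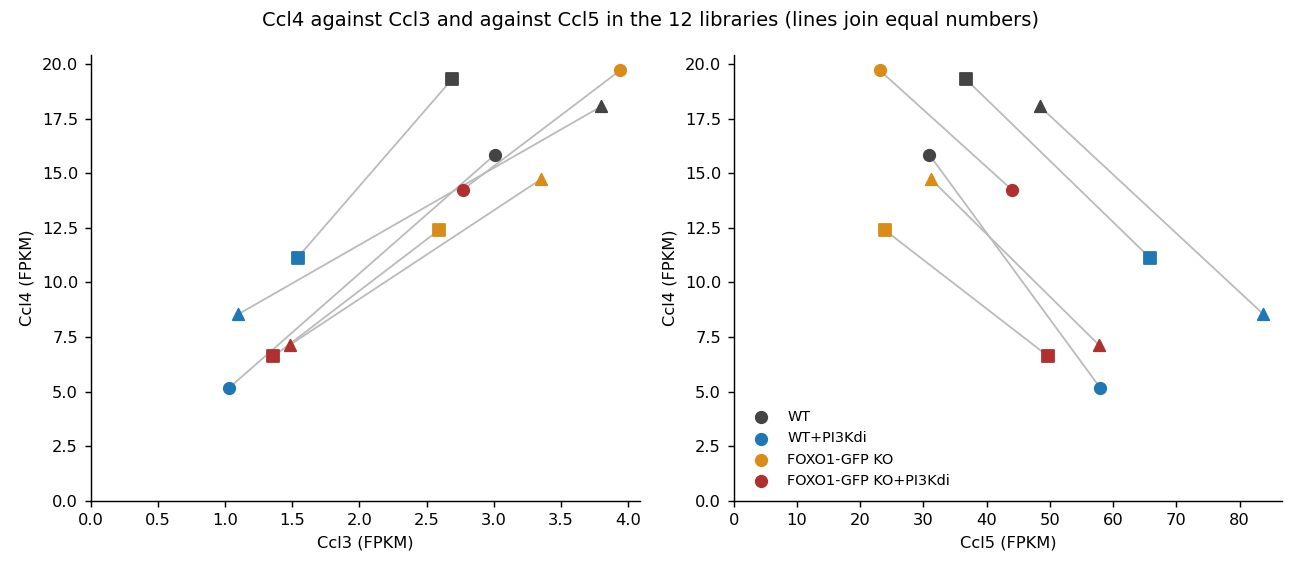
Ccl4 (y axis) against Ccl3 (left) and against Ccl5 (right), both in FPKM on linear axes from 0, one point per library, coloured by group with circles, squares and triangles for replicates 1, 2 and 3 and lines joining the vehicle and PI3Kdi cultures of the same number. Toward PI3Kdi the 6 lines run down together in both genes on the left, and down for Ccl4 but up for Ccl5 on the right.

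Ccl3 and Ccl4, which are neighbours on the chromosome, also varied together within groups. Over the 12 libraries Pearson's r on log2(FPKM + 0.1) was 0.917 between Ccl3 and Ccl4, and it was 0.852 once the group means were subtracted. Ccl3 and Ccl5 had r of -0.778 over the 12 libraries and -0.056 within groups, so that their opposite order was one between groups. Ccl5 lies in the same stretch of chromosome 11 and had r of -0.627 with Ccl4 over the 12 libraries, but -0.029 within groups. These coefficients describe 12 libraries in 4 groups that share treatment and culture number, and were not tested.

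Of 9545 other named genes that averaged 1 FPKM or more, those with the highest r over the 12 libraries were looked up for each member. For Ccl3 they were Pdcd1lg2 (0.934), which encodes the PD-1 ligand PD-L2, Mycn (0.928) and Ifng (0.907), which encodes interferon gamma. For Ccl4 they were Pdcd1lg2 (0.959), Egr1 (0.882), an immediate early transcription factor, and Gnb1 (0.882), a G protein β subunit. For Ccl5 they were Mgst2 (0.981), a microsomal glutathione S-transferase, Lpxn (0.972), the adaptor leupaxin, and Gimap3 (0.969), a GTPase of lymphocytes. For Xcl1 they were Nrros (0.895), Abhd12 (0.836) and Shld3 (0.833), and for Ccl12 Crcp (0.906), Mrps18a (0.894) and Ap2m1 (0.859). Pdcd1lg2 led the lists of both Ccl3 and Ccl4, but its own log2 fold changes with PI3Kdi were small, -0.32 (WT) and -0.21 (FOXO1-GFP KO).

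Other chemokine ligands were few. Of 40 mouse chemokine ligands listed, 8 were in the table, namely the 5 members and Ccl25, Ccl27a and Cxcl10, and the other 32 were not analysed here. Ccl25, a ligand of CCR9, stayed at group means of 0.40 to 0.44 FPKM. Ccl27a, a ligand of CCR10, had group means of 0.22 to 0.49 FPKM. Cxcl10, the interferon-inducible ligand of CXCR3, had 1.74 (WT), 1.02 (WT+PI3Kdi), 1.04 (FOXO1-GFP KO) and 1.41 FPKM (FOXO1-GFP KO+PI3Kdi). Its log2 fold change with PI3Kdi was -0.68 in WT CTL (0.0555 after adjustment in the blocked fit), against 0.28 in FOXO1-GFP KO CTL (0.351), and none of these 3 ligands was called in a PI3Kdi comparison with or without the block.

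RNA of some receptors of the members was measured in the same libraries. Ccr2, which binds CCL12, had group means of 36 to 44.5 FPKM, with log2 fold changes for PI3Kdi of 0.21 (WT) and 0.17 (FOXO1-GFP KO). Ccr1, which binds CCL3 and CCL5, was low at 0.27 to 0.41 FPKM. Neither was called for PI3Kdi or genotype. Xcr1, Ccr3 and Ackr2 were not among the 11 of 24 listed receptors in the table.

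Of these 11 receptors, none was called for PI3Kdi without the block. With it, 3 rose in WT CTL and 1 in FOXO1-GFP KO CTL, where 1.53% and 1.82% of all genes were called higher. Cxcr4, the receptor of CXCL12, rose by 0.95 in WT and by 0.73 in its FOXO1-GFP KO counterpart (blocked adjusted p 0.00123 and 0.00678). Ccr7, which directs T cells to lymph nodes, rose by 0.65 in WT (0.0237), and Cxcr5 rose by 0.61 (0.0375) from a mean of 0.11 FPKM. By genotype with PI3Kdi, Cxcr3 was lower in FOXO1-GFP KO CTL, with a log2 fold change of -1.06 (adjusted p 0.000831 without and 0.0016 with the block) and so was Cxcr6, with -1.66 (0.00949 and 0.00301). Cxcr6 was also called without PI3Kdi in the blocked fit (-1.26, adjusted p 0.0352). The median log2 fold change of the 11 receptors was 0.21 (WT) and 0.09 (FOXO1-GFP KO), against -0.04 and -0.02 over all genes.

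**Figure D4:**
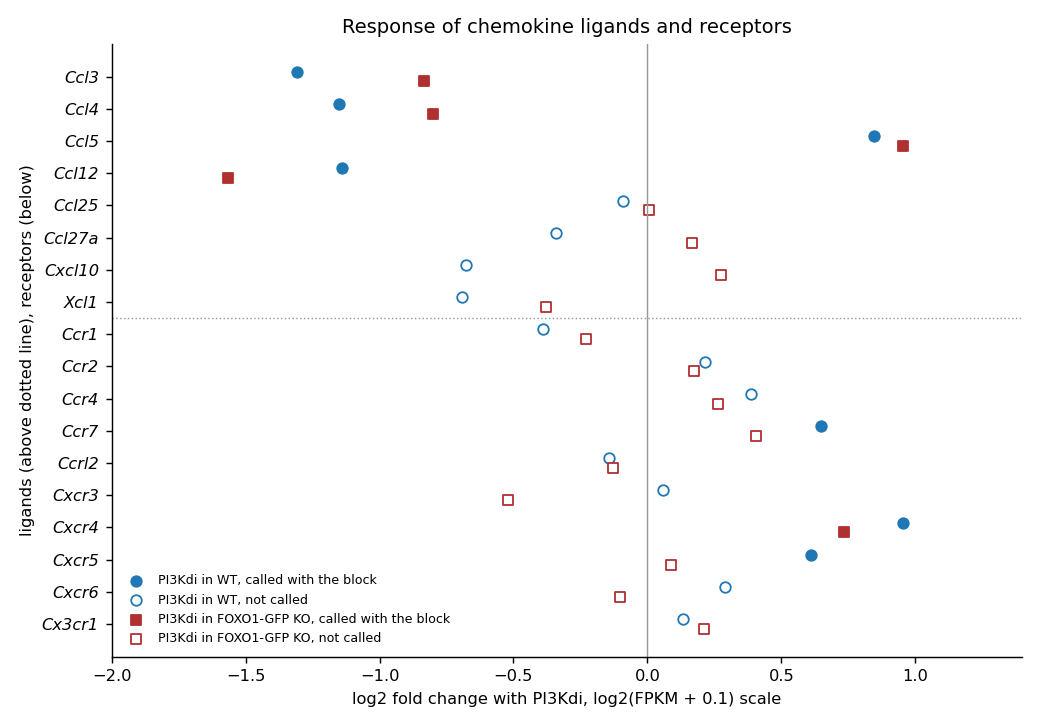
Log2 fold change with PI3Kdi (x axis) of the 8 chemokine ligands and 10 of the 11 receptors in the table, in WT (blue circles) and FOXO1-GFP KO CTL (red squares), filled where called with the replicate block within genotype. Ccl3, Ccl4 and Ccl12 are filled to the left and Ccl5 and Cxcr4 to the right in both genotypes, while Ccr2 lies near 0.

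Genes of the machinery around the chemokines were set beside the share of all genes called. For PI3Kdi in WT CTL that share was 0.0979% without the block, and 1.53% higher and 1.05% lower with it. In FOXO1-GFP KO CTL it was 0.0452%, and 1.82% higher and 0.964% lower. At such shares, few or no calls in lists this short say little about the listed genes. Of 20 transcription factors known for chemokine gene control, such as Tbx21, Runx3, Klf13 and the NFAT, NF-κB and AP-1 families, none was called without the block, and Irf4 was called with the block in WT CTL (0.60 higher, adjusted p 0.0078). Their median log2 fold change was 0.03 (WT) and -0.02 (FOXO1-GFP KO). None of 8 genes for AU-rich element binding and mRNA decay, such as Zfp36, was called in any of the 7 comparisons. Srgn, whose product serglycin carries chemokines in granules, and Dpp4, the peptidase that trims CCL5, were not called either, with log2 fold changes in WT CTL of 0.18 and 0.43.

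Of 15 target and feedback genes of the ERK pathway, which acts downstream of the T cell antigen receptor, none was called for PI3Kdi without the block. With it, 2 fell in WT CTL, Egr1 (-1.19, adjusted p 0.0049) and Phlda1 (-0.59, 0.00898). In FOXO1-GFP KO CTL 4 fell, namely Egr1 (-0.77, 0.0356), Egr2 (-0.65, 0.0201), Spry1 (-0.65, 0.00982) and Etv5 (-0.72, 0.0401). Of these, Spry1 and Egr2 were near the floor. Their FOXO1-GFP KO means without and with PI3Kdi were 0.15 and 0.06 FPKM for Spry1 and 0.49 and 0.27 FPKM for Egr2. Of all genes, 1.05% (WT) and 0.964% (FOXO1-GFP KO) were called lower with the block. The median of the list was -0.26 (WT) and -0.49 (FOXO1-GFP KO), against -0.04 and -0.02 over all genes.

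Markers of other lymphocytes moved in places. In WT CTL with the block, Igkc, an immunoglobulin light chain gene, was called higher with PI3Kdi, from a mean of 0.91 to 2.14 FPKM. Cd4 was also called higher, from 0.52 to 0.89 FPKM. The other CD4 T cell markers in the table were lower, Zbtb7b from 6.43 to 6.02 FPKM and Cd40lg from 0.64 to 0.61 FPKM. Of the B cell markers, Jchain went from 0.48 to 0.88 FPKM without a call, and Cd79b was at 3.61 and 3.67 FPKM. H2-Ab1 went from 5.78 to 4.34, Cd74 from 1.94 to 1.34 and H2-Aa from 0.117 to 0.097 FPKM, none of them called. Ms4a1 and Cd79a were not in the table. The summed level of the 7 B cell markers in the table was 19.9 to 24.0 FPKM in WT and 20.8 to 27.1 FPKM in WT+PI3Kdi CTL, and at most 11.98 FPKM in any FOXO1-GFP KO library. Ighm, the highest of the 7 in WT CTL, had means of 8.67 and 12.27 FPKM without and with PI3Kdi. Its log2 fold change was 0.51 (adjusted p 0.0191 in the blocked limma fit), too small for a call. In FOXO1-GFP KO+PI3Kdi CTL the Igkc mean was 0.00 FPKM, and those of Jchain and H2-Aa were 0.18 FPKM. Cd79b was at 2.96, H2-Ab1 at 2.73, Ighm at 2.35 and Cd74 at 1.91 FPKM in that group. The part of these other lymphocytes in the chemokine results was not tested. NK cell markers, of which 3 of 6 were in the table and Ncr1 was not, summed to 20.2 to 44.3 FPKM in WT and 21.5 to 43.0 FPKM in WT+PI3Kdi CTL, most of it Fcer1g, and none was called for PI3Kdi.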

How the data were processed

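RNA was sequenced as 75-base paired-end stranded poly(A) libraries. Per the methods of the study, reads were aligned to GRCm38.p6 with STAR (2.7.1a) and counted per gene on Ensembl annotation, low genes were filtered, and the authors deposited FPKM values from edgeR, scaled by TMM and divided by the summed exon length of each gene. The strand setting of the counting was not given in the sources used here.

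From the deposited FPKM table, log2(FPKM + 0.1) of 13283 genes was fitted with limma (3.58.1; R 4.3.3; trend) to 4 group means in 12 libraries, for 7 comparisons. Files with FPKM do not allow a count test as the main result. Effective depth was recovered from the spacing of FPKM values of genes up to 400 bases long, and 98.3 to 100% of values of held-out genes up to 800 bases long came out whole (tolerance 0.2). Estimated reads of the members lay within 0.12 of whole numbers. Labels number replicates 1 to 3 in each group; over 10373 genes, deviations of same-numbered libraries correlated at 0.596 to 0.838 within WT and 0.594 to 0.78 within FOXO1-GFP KO, but at -0.409 to 0.73 and -0.315 to 0.508 across genotypes, so the number was used as a block within genotype (random effect, consensus correlation 0.757). In a test on simulated data of the comparison of PI3Kdi in WT (13276 genes, 200 of them changed by 1 on the log2 scale), 58% of the changed genes were recovered without and 88.5% with the block, and 0 and 7 unchanged genes were called. The simulation gave same-numbered cultures of a genotype a shared deviation, as the block assumes, so the gain from blocking was built in. Changed genes were drawn only from genes above a minimum read level, so the recovery does not carry over to genes with few reads, such as Ccl12.

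The members and gene lists were chosen with earlier results of these data known. Named genes were the members, Foxo1, the 3 genes most correlated with each member, other ligands, receptors of the members, and list genes called in a comparison. Cell type markers named for their levels, and genes named as examples of a list, fall outside that rule and were chosen after their values were seen. Sequences came from GENCODE M21 and RefSeq (GRCm38.p6); protein sequences were not used here. A few items, among them sequence and marker values, are not reported here.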

Additional observations from a re-analysis of the deposited data

How the results depend on the processing

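Counts of members called were recomputed under each alternative, in the order PI3Kdi in WT, in FOXO1-GFP KO and over both genotypes. They were 0, 0 and 2 without the block and 4, 4 and 4 with the replicate block within genotype. The replicate block as fixed terms, and on voom-weighted estimated reads, gave 3, 4 and 4. Blocking on the number across all groups gave 1, 1 and 2, Ccl5 in each genotype. Voom without the block gave 1 over both genotypes, with Ccl3 at an adjusted p of 0.0621. Pseudocounts of 0.01 and 1 FPKM, a minimum mean of 1 FPKM, quantile normalization and median centring left 0, 0 and 2. Fitting the compared groups alone left 0 in each genotype. The paired analysis changed no call by genotype or for the difference of responses.

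Leaving out each library in turn was run without the block as planned and, after the data had been seen, also with it. Counts without the block were 0 in WT, 0 in FOXO1-GFP KO CTL and 0 to 3 over both genotypes, and with the block 3 to 4, 1 to 5 and 4 to 5. Differences near 0 changed sign when a library was left out; with and without the block they ranged as follows. For PI3Kdi in FOXO1-GFP KO CTL, Xcl1 ran from -0.96 to 0.11. For genotype without PI3Kdi, Ccl3 ran from -0.18 to 0.23 and Ccl12 from -0.36 to 0.58. For genotype with PI3Kdi, Ccl4 ran from -0.20 to 0.39 and Ccl12 from -0.79 to 0.29. For genotype over both treatments, Ccl4 ran from -0.20 to 0.093 (0.030 with blocked voom) and Ccl12 from -0.33 to 0.21. For the difference of responses, Ccl5 ran from -0.064 to 0.26, Xcl1 from -0.26 to 0.80 and Ccl12 from -0.93 to 0.16. With all libraries kept, none of these differences was called. In 1 blocked limma fit, without FOXO1-GFP KO+PI3Kdi replicate 1, Xcl1 was called for PI3Kdi in FOXO1-GFP KO CTL (-0.96, adjusted p 0.0346). The cause of the sign changes was not tested.

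Ccl12 rested on 2 to 37 reads per library, and its genotype difference without PI3Kdi had a 95% interval from -0.87 to 1.13 on the log2 scale.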
